A study of Homo sapiens with 8 samples.

Results

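The promoter peaks of the general transcription machinery were taken from the list of PML::RARA peaks in induced U937-PR9 cells. A peak was a member when the gene symbol that the authors gave it began with MED and a digit, TAF and a digit, GTF and a digit, or POLR. In all, 54 peaks met this rule, of 7169 peaks with a gene symbol (0.753%) and of 15412 peaks in the list. They carried 54 different genes, lay on 18 of 23 chromosomes, and comprised 17 MED, 11 TAF, 10 GTF and 16 POLR symbols. The choice used the symbols and none of the signal values. A symbol does not define a complex: TAF15 belongs to the FET family of RNA-binding proteins, TAF6L to the SAGA coactivator, TAF1B and TAF1D to the polymerase I factor SL1, and POLR2J4 is annotated as a long noncoding RNA.

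U937-PR9 is a human monocytic line, 1 cell line, with a PML::RARA transgene behind a zinc-inducible promoter. Cells received 100 µM ZnSO4 (induced) or no ZnSO4 (uninduced), were assayed after 5 h, and Cut&Run was made with an anti-PML::RARA and an anti-RARA antibody, with 2 replicates of each, or 8 libraries in all. Cut&Run releases the DNA around an antibody-bound protein with a tethered nuclease, and runs of high signal are called as peaks. Only the anti-PML::RARA peaks of induced cells were analysed here, so a peak at a member gene does not by itself measure a change on induction. The authors called these peaks over a paired control, which they do not describe further for Cut&Run. With this antibody they reported far fewer and weaker peaks in uninduced cells. They found most of the induced sites again in NB4 cells, which express the fusion without induction. Whether zinc itself contributed to a member peak was not tested here. Each peak came with 1 set of values for the 2 replicates, so there is no spread between replicates and no test over samples. The values are the height of a peak, read here as the largest signal in it and on a scale not stated, and its width in base pairs (bp). The list holds no expression, so the monocytic label could not be set against marker genes.

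RNA polymerase II starts at a protein-coding promoter after the general factors TFIIA, TFIIB, TFIID, TFIIE, TFIIF and TFIIH have assembled on it, with TFIID, made of TBP and its TAFs, recognising the core promoter. Mediator, built of a head, a middle, a tail and a detachable kinase module, carries the signal of activators to the polymerase. RNA polymerase I transcribes ribosomal RNA with the factor SL1, RNA polymerase III transcribes tRNA and other short RNAs with TFIIIA and TFIIIC, and POLRMT transcribes mitochondrial DNA.

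The sequences under the apexes are shown first because the members are promoter regions and differ in the motifs they hold. An apex is the midpoint of the stretch of largest signal in a peak. That stretch was long in some members, as in TAF6 (chr7:99717234-99717721), and their apexes are less exact. The stretches below are 30 bases of hg19 around a match to CCGGAAG, the core of many ETS-factor sites, at the members where a match came nearest to the apex among the 15 that had one. Each is read 5′ to 3′ on the strand of the gene, and capitals mark CCGGAAG or its reverse complement.
MED15, chr22:20861839-20861868, plus strand: gccctccttcaCTTCCGGctcggccgaggc
MED11, chr17:4634713-4634742, plus strand: accgagagccaCTTCCGGaacaagcgtcgc
MED7, chr5:156569873-156569902, minus strand: tcccggaggagaCCGGAAGttggtttcggc
MED17, chr11:93517362-93517391, plus strand: ctcttataggcCCGGAAGtttaccccaccc
GTF2F1, chr19:6393206-6393235, minus strand: tcgagggtttcgCTTCCGGgttaggcggcc
TAF12, chr1:28969588-28969617, minus strand: cggggagcggtgCCGGAAGtagtcggggag
POLR3A, chr10:79789347-79789376, minus strand: aaaaaaggcatgCCGGAAGtctctcttgac
The centre of the match lay 1 bp from the apex in MED15, 2 bp in MED11, 3 bp in MED7, 10 bp in MED17, 11 bp in GTF2F1, 27 bp in TAF12 and 30 bp in POLR3A. These matches also sat close to the transcription start, from 1 bp in MED11 to 88 bp in POLR3A.

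A second set shows the rarer motifs at members that also illustrate the initiation region, written in the same way. Capitals mark GCATGCGC, the core of NRF1-type sites, in POLRMT and MED18, ATGGCGGC, a YY1-type motif, in MED13L, GTF3C6 and MED16, and AGGTCA, the half-site of nuclear receptors such as RARA, in MED13, or their reverse complements.
POLRMT, chr19:633541-633570, minus strand: gcggcgcgggcGCATGCGCaggcgcgggcc
MED18, chr1:28655415-28655444, plus strand: cggaattttgcGCATGCGCctctgattgtc
MED13L, chr12:116715486-116715515, minus strand: cgcggtcggcgGCCGCCATtgctgtcagag
GTF3C6, chr6:111279907-111279936, plus strand: ccgtactcaagATGGCGGCtccgggcgggc
MED16, chr19:893144-893173, minus strand: taccgaggaagATGGCGGCgccagacccga
MED13, chr17:60143340-60143369, minus strand: cccgggcccacgTGACCTcaaggcggccaa
The NRF1-type match lay 5 bp from the apex in POLRMT and 12 bp in MED18. The YY1-type match lay 6 bp from the apex in GTF3C6, 8 bp in MED13L and 58 bp in MED16. In MED13 the half-site lay 6 bp from an apex that was itself 709 bp upstream of the gene. A match is a description of the letters and not evidence that a factor was there.

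Several members share the space between 2 starts with a neighbour on the other strand, and gaps that hold no annotated exon are given whole because 1 peak covers both promoters. They are written on the minus strand, that of TAF1D and POLR3K, with capitals at CCGGAAG in the first, and at CCAAT, the NF-Y-type motif, and GGGCGG, the GC box of SP factors, in the second.
TAF1D to C11orf54, chr11:93474662-93474756: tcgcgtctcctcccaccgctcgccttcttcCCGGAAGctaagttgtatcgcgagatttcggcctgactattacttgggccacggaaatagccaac
POLR3K to SNRNP25, chr16:103609-103827: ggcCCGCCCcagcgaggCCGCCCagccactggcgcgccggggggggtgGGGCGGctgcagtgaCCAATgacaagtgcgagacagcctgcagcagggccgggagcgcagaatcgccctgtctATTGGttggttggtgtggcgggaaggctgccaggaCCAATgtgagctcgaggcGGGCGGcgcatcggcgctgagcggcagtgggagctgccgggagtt
The gaps are 95 bp and 219 bp long. The POLR3K gap holds both of its motifs more than once, and the height of the peak over it, 37, was exceeded by TAF6L alone among the members.

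The first comparison asked how many genes of the machinery had a PML::RARA promoter peak at all. Of 125 protein-coding genes whose symbols follow the rule in GENCODE, 54 (43.2%, Wilson 95% interval 34.8 to 52) had a peak labelled with the gene, against 30.3% of all 20090 protein-coding genes. Here POLR1F was counted through its older symbol, TWISTNB, while POLR2J4 was not counted. Among the 125 are 12 TAF11L genes, a recent multicopy family with no peak in the list. Without them the share was 54 of 113 genes (47.8%, 38.8 to 56.9). Leaving them out was chosen after seeing the data, and the share of all protein-coding genes still counts such families. Each member gene had 1 labelled peak, whereas 551 of 6492 other labelled genes (8.49%) had more than 1.

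The list gives 1 symbol to a peak, so a gene that shares its promoter can lose its label to the neighbour. Counting genes with an apex within 1 kb of an annotated start instead gave 53.6% of the 125, against 37.5% of all protein-coding genes. Without the TAF11L genes it gave 67 of 113 genes (59.3%, 50.1 to 67.9), a set trimmed on the member side only. Of the 67 genes, 14 (12.4% of 113) had no peak under their own label, and 8.45% of all protein-coding genes were in that position. Among them were the catalytic pair of RNA polymerase II. The peak at POLR2A, the largest subunit, was labelled ZBTB4 and reached 36, although its apex stood 390 bp before the POLR2A start. The peak at POLR2B, the second-largest subunit, carried the label of NOA1 and a height of 31.

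Subunits shared between polymerases were also found under other labels. POLR2H, present in RNA polymerases I, II and III, had a start peak of height 35 and width 2610 bp labelled CLCN2. The peak at POLR1D, shared by polymerases I and III, was labelled LNX2 and had a height of 31. That at POLR1C, its partner in both enzymes, was labelled YIPF3 and had a height of 17. Of the general factors, the TFIIE subunit gene GTF2E1 had the highest such peak, labelled RABL3, at 37. The TFIIH subunit genes GTF2H1 and GTF2H3 had low ones of 18 and 21, labelled HPS5 and EIF2B1. The others were MED29 of the Mediator tail (34, labelled PAF1), TAF8 of TFIID (24, CCND3), POLR1H (24, ZNRD1ASP), POLR3D (17, MIR320A), POLR3G (25, MBLAC2) and, without a label, GTF2IRD2B (29). Over the 14 peaks the median height was 27, with a range of 17 to 37. GTF2IRD2B has near-identical copies, and its reads may belong to any of them.

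Coverage was counted by family, as a description over few genes. Of all protein-coding genes, 30.3% had a labelled peak and 37.5% an apex within 1 kb of a start. The labelled share of the GTF2 genes, 33.3%, lay near the first of these. Labelled peaks were found at 17 of 30 MED genes, 11 of 24 TAF genes other than TAF11L, 6 of 18 GTF2 genes, 4 of 7 GTF3 genes and 16 of 34 POLR genes. Counting start peaks under other labels brought the POLR genes to 24 and the GTF2 genes to 10, while the MED and TAF genes gained 1 each and the GTF3 genes none.

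**Figure D1:**
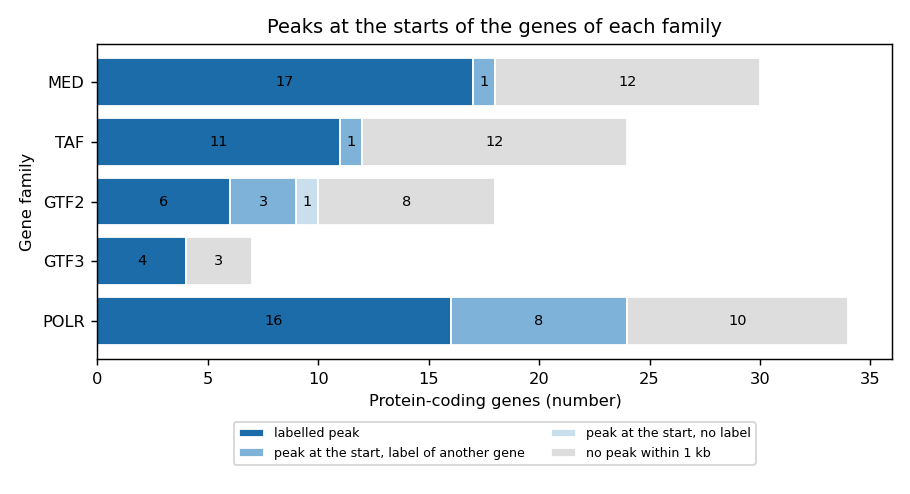
Number of protein-coding genes in each family (horizontal axis) with a peak labelled with the gene, with a peak within 1 kb of a start under the label of another gene or under none, and with no such peak, TAF11L genes left out. The POLR bar gained the most from peaks under other labels (8 genes), and 12 MED and 12 TAF genes had no peak at the start.

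Within Mediator, coverage was counted by module, over fewer genes still and beside the 30.3% of all protein-coding genes with a labelled peak. The head had labelled peaks at 5 of 7 genes, the middle and backbone at 7 of 10 and the kinase module at 2 of 4. The tail had them at 3 of 9, near the background. With no peak within 1 kb were MED6 and MED22 of the head, MED1, MED9 and MED10 of the middle, MED12 and MED12L of the kinase module, and MED24, MED25, MED27, MED28 and MED30 of the tail. MED1 is the subunit through which nuclear receptors contact Mediator, and MED12 activates the kinase. In TFIID, TAF3, TAF4, TAF4B, TAF7, TAF7L, TAF9B, TAF11, TAF13 and TAF1L had none, among them the scaffold subunit gene TAF4 and the paralogs TAF1L, TAF4B, TAF7L and TAF9B. Outside TFIID, TAF5L of SAGA and TAF1A and TAF1C of SL1 had none either.

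Among the other families, TFIIB (GTF2B), the TFIIA paralog GTF2A1L, GTF2F2 of TFIIF and the TFIIH genes GTF2H2, GTF2H2C and GTF2H5 and the TFII-I relatives GTF2IRD1 and GTF2IRD2 had no peak at the start, nor had the TFIIIC genes GTF3C1, GTF3C3 and GTF3C4. For RNA polymerase II and the shared subunits this held for POLR2C, POLR2F, POLR2J, POLR2J2, POLR2J3, POLR2K and POLR2L, and in the other polymerases for POLR1G, POLR3F and POLR3GL. GTF2H2, GTF2IRD2 and POLR2J belong to families of near-identical copies, where reads may be lost or split. Across the 45 protein-coding genes without a peak within 1 kb, the nearest apex lay at a median of 64626 bp. POLR1G came closest to having one, with an apex 1138 bp away, and MED30 was farthest, at 645767 bp. Of the 45 genes, 4 had an apex within 10 kb and 16 had none within 100 kb. A peak missing from the list is one that did not pass the calling and replicate filters, and the depth behind that is not known.

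The second comparison was of the size of the peaks. The median height over the members was 23.5 (lower and upper quartiles 21 and 30, range 16 to 43, n = 54), against 26 (20 and 35, 13 to 86) for the 7115 other labelled peaks. Binomial 95% intervals of the medians were 22 to 27 and 26 to 26, so the difference in median height was within the interval of the members. Of the members, 32 lay below the median of the others, 21 above and 1 on it. High peaks were fewer: 7 of 54 (13%, 6.42 to 24.4) reached 35, the upper quartile of the labelled list, where 25.5% of all labelled peaks did. At the lowest member height, 16, there were 7 members (13%), against 5.8% of the other labelled peaks. That height is the members' own minimum, and at or below the lower quartile of the labelled list, 20, there were 13 members (24.1%, 14.6 to 36.9) and 26% of the other labelled peaks.

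Width differed more than height. The median member peak was 876 bp wide (quartiles 686 and 1127, interval of the median 748 to 969), and the other labelled peaks 1110 bp (771 and 1542, 1094 to 1128). These intervals did not overlap, and 39 of 54 members (72.2%, 59.1 to 82.4) were narrower than the median of the others. Of the members, 6 (11.1%, 5.19 to 22.2) reached the upper quartile of width, 1539 bp, against 25% of all labelled peaks. The mean signal per base was nearer between the sets, with medians of 8.85 and 9.09. Wider member peaks tended to be higher, with a Spearman correlation of 0.55 over the 54 peaks and 0.446 over the others, a description across peaks of the same libraries.

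**Figure D2:**
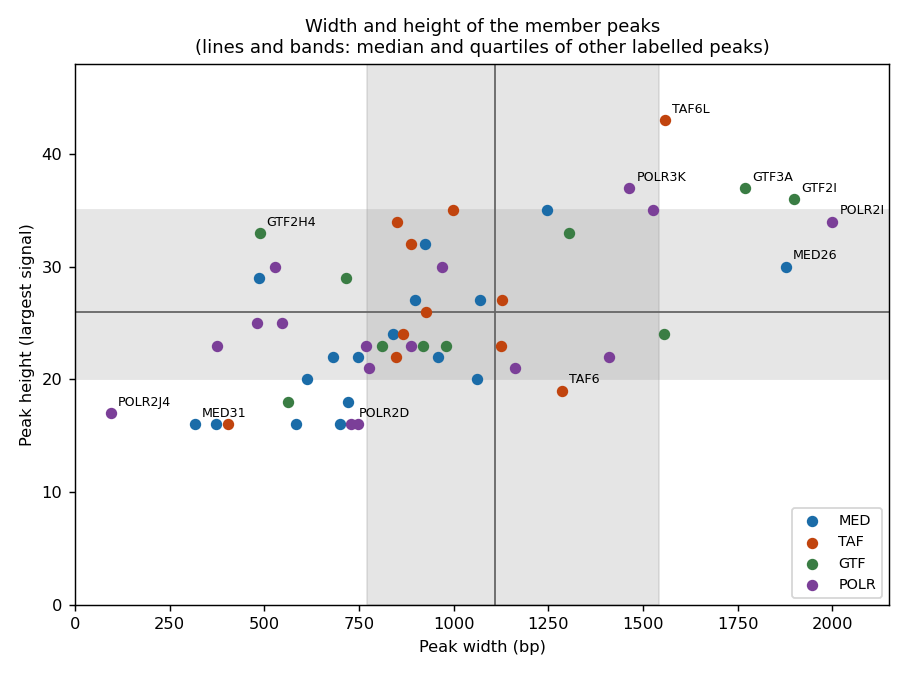
Height (largest signal) against width (bp) of each of the 54 member peaks, coloured by family, with lines at the medians and bands between the quartiles of the other labelled peaks. Most points lie left of the median width of 1110 bp, and the 6 widest peaks reach up to 2000 bp.

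By family, median heights were 22 for MED (n = 17), 26 for TAF (n = 11), 26.5 for GTF (n = 10) and 23 for POLR (n = 16). Median widths were 747 bp, 926 bp, 948 bp and 771 bp in that order. The intervals of the medians overlapped between every pair of families for height, at 18 to 27 for MED, 19 to 35 for TAF, 23 to 36 for GTF and 21 to 30 for POLR. They also overlapped for width, the nearest to parting being MED (613 to 959 bp) and TAF (848 to 1285 bp). Every family median was below the 1110 bp of the other labelled peaks. Only the MED interval excluded that value, and those of TAF, GTF (561 to 1769 bp) and POLR (529 to 1411 bp) held it.

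**Figure D3:**
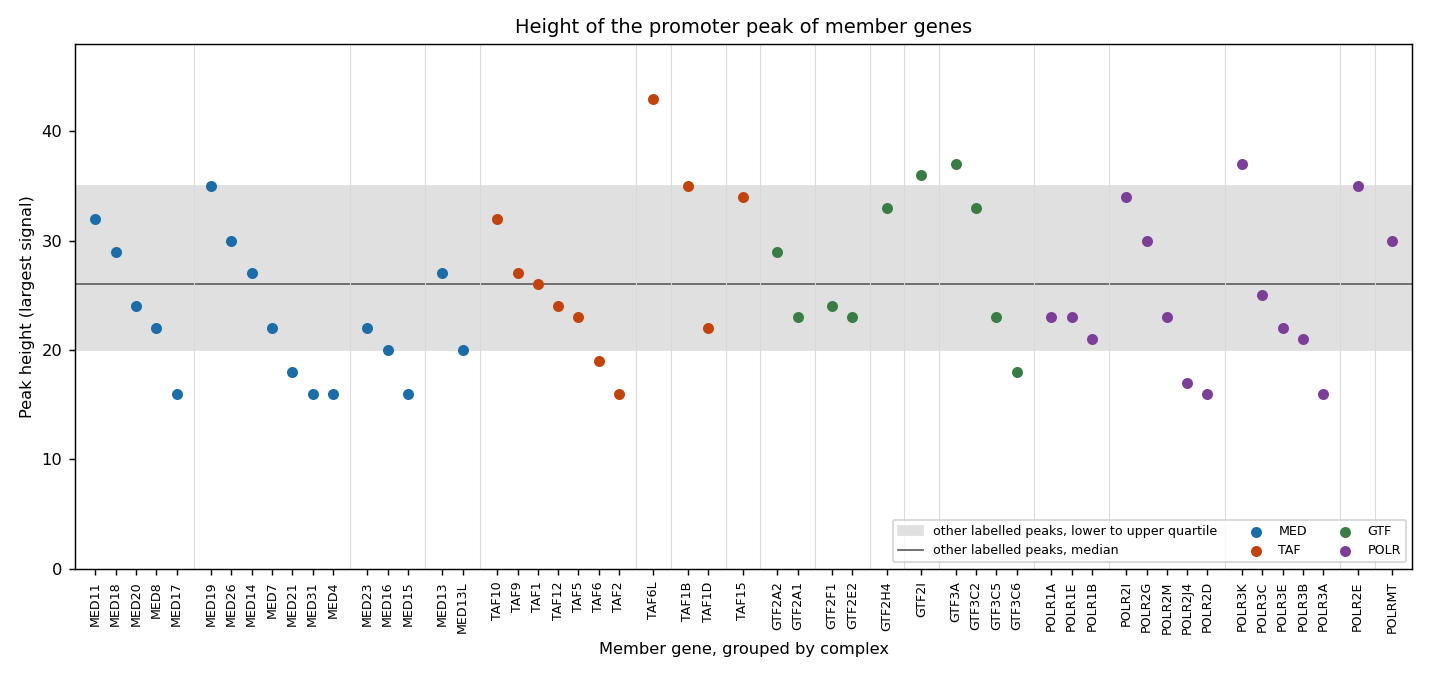
Height (largest signal) of the promoter peak of 53 of the 54 member genes, grouped by complex and coloured by family, with the median (line) and quartiles (band) of the other labelled peaks. TAF6L is highest at 43, and 7 genes sit at 16.

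In the head of Mediator, the peaks ran from 16 to 32. MED11, a small head subunit, was highest at 32 (chr17:4634493-4635415, 923 bp). MED18, which forms a movable jaw of the head with MED20, had a height of 29 over 485 bp, and MED20 a height of 24 over 840 bp. MED8 was the widest of the head at 959 bp, with a height of 22. MED17, the scaffold on which the head is built, was lowest, at 16 over 371 bp. The scaffold gene thus had a smaller peak than the genes of the jaw.

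The middle and backbone ran from 16 to 35. MED19, a middle subunit, reached 35 over 1246 bp (chr11:57479092-57480337), and its window at the apex had the lowest GC content of the members, 46.3%. MED26, which recruits elongation factors, had the widest Mediator peak, 1876 bp with a height of 30. MED14, the backbone that joins all modules, had a height of 27 over 1070 bp. At the other end, MED31 had the narrowest Mediator peak, 316 bp with a height of 16. MED4 (16, 700 bp), MED21 (18, 721 bp) and MED7 (22, 747 bp), which make up the core of the middle, were all below the median height of 26 of the other labelled peaks.

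The tail and the kinase module had low or medium peaks. MED23 and MED15, both targets of activators, had heights of 22 (681 bp) and 16 (583 bp), and MED16 had 20 (613 bp). None of the labelled tail peaks reached 26, although the start peak of MED29 under the PAF1 label did, at 34. In the kinase module, MED13, which links the module to Mediator, had a height of 27 over 897 bp. Its paralog MED13L had 20 over 1061 bp, with the highest GC content at the apex of the members, 76.6%.

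TFIID peaks ran from 16 to 32. TAF10 was highest at 32 (chr11:6633363-6634250, 888 bp), followed by TAF9 at 27, TAF1, the largest subunit, at 26, TAF12 at 24 and TAF5 at 23. TAF6, the histone-fold partner of TAF9, had the widest TFIID peak, 1285 bp, but a height of 19. TAF2, which contacts the initiator element, was lowest at 16 over 405 bp. TAF9, TAF10, TAF12, TAF5 and TAF6 or their paralogs also serve in SAGA, and they lay on both sides of the median height of 26.

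The TAF genes outside TFIID held the highest of the family. TAF6L of SAGA had a height of 43 over 1557 bp (chr11:62537986-62539542), the largest height among the 54 members. TAF1B of SL1 had 35 over 997 bp, and TAF1D, its partner, 22 over 848 bp. TAF15 had 34 over 850 bp. TAF15 and MED19 had the largest mean signal per base of the members, 15 in both after rounding.

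Among the factors for RNA polymerase II, GTF2I, which encodes the signal-responsive factor TFII-I, had the largest peak, with a height of 36 over 1898 bp. GTF2H4 of TFIIH had a height of 33 within 487 bp, so it was high for its width. The TFIIA genes GTF2A2 and GTF2A1 had 29 and 23. GTF2F1 of TFIIF had 24 over 1556 bp, and GTF2E2 of TFIIE 23 over 918 bp. For RNA polymerase III, the TFIIIA gene GTF3A had a height of 37 over 1769 bp, and the TFIIIC genes GTF3C2, GTF3C5 and GTF3C6 had 33, 23 and 18.

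In RNA polymerase I, the catalytic subunit genes POLR1A and POLR1B had heights of 23 and 21, and POLR1E, a subunit used in initiation, had 23. The POLR1F peak, which was no member because it was labelled TWISTNB, had 16 over 375 bp. RNA polymerase II varied more: POLR2I had 34 over 2000 bp, the greatest width of the members, while POLR2G and POLR2D, which form the stalk of the enzyme together, had 30 and 16. POLR2M, whose product restrains the polymerase until Mediator acts, had 23 over 374 bp. POLR2J4 had the narrowest peak of all members, 94 bp with a height of 17, and its reads may come from the other POLR2J copies.

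RNA polymerase III ran from 16 to 37. POLR3K, a small subunit that acts in termination, was highest at 37 over 1463 bp, and POLR3A, the largest subunit, lowest at 16 over 748 bp. Between them were POLR3C at 25, POLR3E at 22 and POLR3B, the second catalytic subunit, at 21. POLR2E, shared by polymerases I, II and III, had 35 over 1527 bp, and POLRMT 30 over 969 bp. The largest subunit genes thus stood at 23 in polymerase I, at 36 under the ZBTB4 label in polymerase II and at 16 in polymerase III.

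The apex of the member peaks lay close to the start of the gene. The median distance was 65 bp (quartiles 21 and 145, range 0 to 1374), against 114 bp for the other labelled peaks with an annotated start. In 33 of 54 members (61.1%, 47.8 to 73) the apex was within 100 bp of the start, against 45.8% of the others. It was upstream of the start in 41 members (75.9%), downstream in 12 and on it in TAF12, and 75.3% of the others were upstream. By the annotation of the member gene, 29 apexes lay outside the gene, 19 in an exon and 6 in an intron.

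A few members departed from this. The apex of GTF3A lay 1374 bp downstream of its nearest start, the only member beyond 1 kb. TAF5 had its apex 651 bp downstream, and MED13 709 bp upstream. In POLR2I the apex was 535 bp upstream of POLR2I and 29 bp from TBCB. In 7 members (13%, against 8.94% of the other peaks labelled with protein-coding genes) the apex was nearer to the start of another protein-coding gene. Among these were MED7 (HAVCR2), MED23 (ENPP3), TAF9 (RAD17), POLR1A (PTCD3), POLR2I (TBCB) and POLR3K (SNRNP25). For POLR1A the distances were 35 bp and 34 bp, and for MED7 14 bp and 10 bp, so those apexes point to neither gene.

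**Figure D4:**
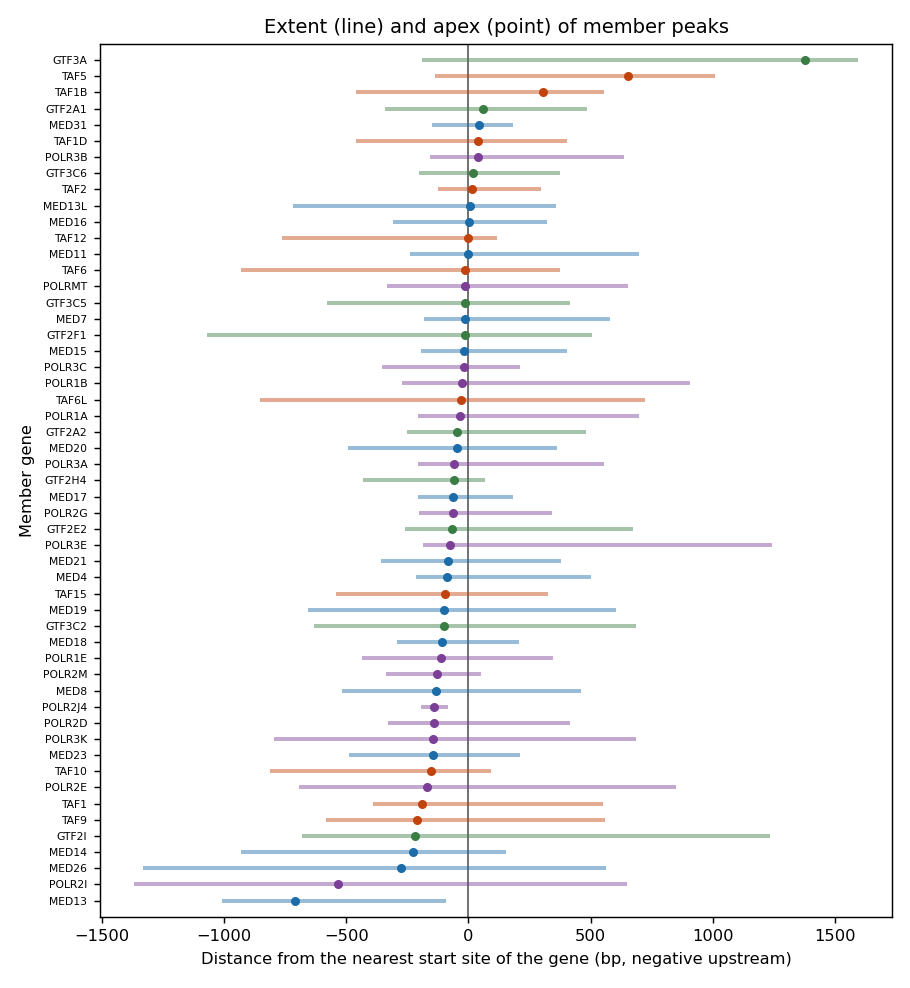
Extent (line) and apex (point) of 53 of the 54 member peaks, as distance in bp from the nearest annotated start of the gene, negative upstream, coloured by family. Most apexes lie close to the start, and GTF3A stands apart at 1374 bp downstream.

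Starts on the other strand were counted next. A protein-coding start on the other strand lay within 1 kb of the member start in 14 of 54 (25.9%, 16.1 to 38.9), against 15.8% of all labelled peaks. Counting any annotated gene, noncoding ones included, it was 25 members (46.3%, 33.7 to 59.4) and 35.2% of the other labelled peaks. The lower bound of the first interval stood above the background and that of the second below it. Beside the pairs TAF1D and C11orf54, and POLR3K and SNRNP25 printed above, the pairs included POLR3C and RNF115, POLR1A and PTCD3, TAF9 and RAD17, MED20 and BYSL, MED23 and ENPP3, TAF6 and CNPY4, MED19 and TMX2, MED31 and C17orf100, POLR2I and TBCB, and MED17 with a long isoform of TAF1D. The last joins 2 members. Members with such a partner had a median height of 22.5 (interval 19 to 34, n = 14) and those without 24 (23 to 29, n = 40). These intervals overlapped, and with so few peaks they cannot settle whether height differed by partner. Among the other labelled peaks the medians were 28 and 26.

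The motif search used 8 fixed strings on both strands within 100 bp of the apex, windows of 201 bp. CCGGAAG was found in 15 of 54 members (27.8%, 17.6 to 40.9), against 15.2% of all labelled peaks. They included MED7, MED8, MED11, MED15, MED17, MED18 and MED31 of Mediator, GTF2A2 and GTF2F1, TAF12, and POLR1B, POLR3A, POLR3C and POLRMT. In these 15 the median height was 24 and the median width 747 bp, and in the 39 members without it 23 and 897 bp. GAGGAAGT, the longer string of PU.1-type ETS sites, which shares GGAAG with the first but cannot be the same match, was found in 0 of 54 members (Wilson upper bound 6.64%), against 3.61% of all labelled peaks. The background thus lay within the interval. With 200 bp on each side, the shares became 46.3% of members and 21.6% of the other labelled peaks for CCGGAAG, and 3.7% and 5.28% for GAGGAAGT.

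AGGTCA was found in 6 members (11.1%, 5.19 to 22.2), namely MED8, MED13, MED26, POLR2D, POLR2M and TAF2, against 9.29% of all labelled peaks. GGGCGG was in 33 members (61.1%) and 61.9% of all labelled peaks, and CCAAT in 19 members (35.2%) and 33.4%. These 3 shares lay at the background. GCATGCGC was found in 5 members (9.26%, 4.02 to 19.9), against 4.31%, and ATGGCGGC in 5 (9.26%, 4.02 to 19.9), against 3.11%. The background of GCATGCGC lay within its interval, and that of ATGGCGGC lay below its own. With 200 bp on each side both strings stayed at 9.26% of members. The other labelled peaks then came to 6.16% and 6.39%, so the background of ATGGCGGC lay within its interval too. GCATGCGC, ATGGCGGC and the ETS-type string all occurred in MED18. The TATA-box string TATAAA was found in POLR2M alone (1.85%), against 2.66% of all labelled peaks.

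**Figure D5:**
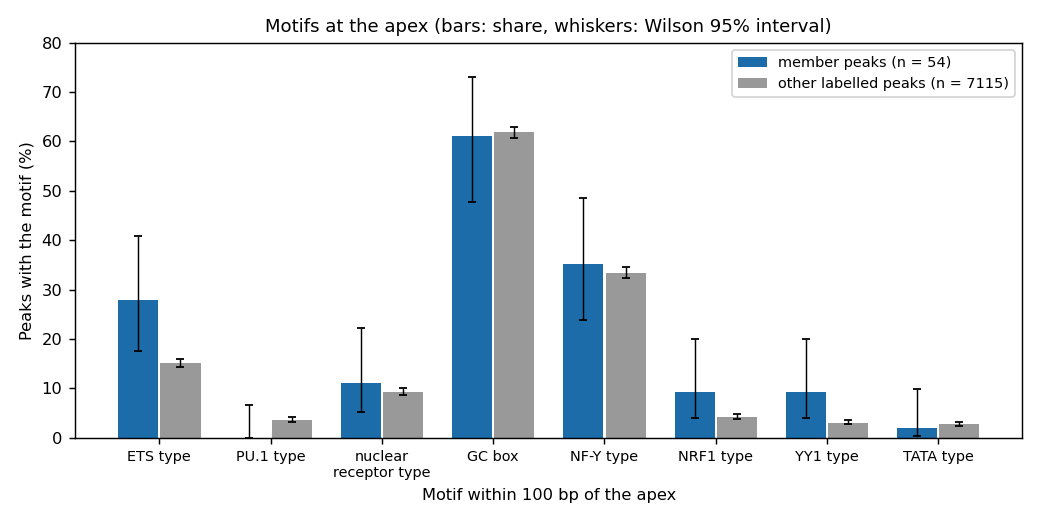
Share of peaks (%) with each motif within 100 bp of the apex, for the 54 member peaks and the 7115 other labelled peaks, with Wilson 95% intervals as whiskers. The ETS-type motif was in 27.8% of the members and 15.1% of the others, and the shares of the GC box were 61.1% and 61.9%.

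Genes of the same machinery whose symbols do not follow the rule were read in the same way, from a list of 39. Of these, 20 (51.3%) had a labelled peak, a share over few genes, against 30.3% of all protein-coding genes. A further 5 had a start peak under another label or none, and 14 had none. The labelled ones had a median height of 21.5 and a median width of 923 bp. The highest start peak of the machinery was that of TBP, the TATA-binding subunit of TFIID, with a height of 60 over 2091 bp, under the label of PSMB1, 2 bp from the TBP start. CDK19, a kinase of Mediator, had an unlabelled peak of 55 over 2790 bp, while its paralog CDK8 had none and cyclin C (CCNC) had 19. TFB1M, a methyltransferase of mitochondrial ribosomal RNA, had 51, and UBTF, the polymerase I activator, had 37 over 3470 bp. The peaks of TBP, CDK19 and TFB1M exceeded the 43 of TAF6L, the highest member.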

How the data were processed

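Libraries of U937-PR9 cells were made by Cut&Run, and the authors aligned the reads to hg19 with Bowtie2, called peaks with SEACR over a paired control with its norm union thresholding, and kept those shared by 2 replicates at an IDR below 0.05. Tool versions are not given in the sources used here. The deposited list holds, for each peak, its position, a total signal and a score, which is the largest signal and is called height here. Whether that setting scaled the deposited signal, and whether replicates were pooled in it, is not stated, and in all 15412 peaks the total was below height times width. The authors assigned the gene symbols. Depth is unknown, so intervals cover the counting of peaks only.

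Coordinates are those of the list, with width as end minus start plus 1. Annotated starts came from GENCODE 44 on GRCh37 (0 peaks ran past a chromosome end), using protein-coding transcripts for protein-coding genes. Of 7169 labels, 7068 had a start, 84 through older RefSeq symbols. Medians have binomial order-statistic intervals and shares Wilson 95% intervals, and no chance test was made. The members, gene lists and motifs were chosen with earlier results of these data known. Genes were named if they were the highest, lowest or widest of a complex, lay away from their own start, shared a promoter, had other peaks in the gene body or lacked a labelled peak, and for small complexes the remaining genes were added. The motif search and both kinds of interval were tested on simulated data, and the other steps were not. Tables were read with pandas 2.3.3 and numpy 2.4.6 in Python 3.11.15, sequences with pysam 0.24.0, intervals came from scipy 1.17.1, and figures were drawn with matplotlib 3.10.9. The anti-RARA, uninduced and patient samples were not analysed here. Values of a few genes are not reported here, and 1 member is left out of the figures that name each gene.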

Additional observations from a re-analysis of the deposited data

How the results depend on the processing

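Of 24 alternative settings, 19 left the value within its interval or limit and 5 moved it. Counting genes by an apex within 1 kb of a start gave 53.6% of member genes in place of 43.2%, and 59.3% without the TAF11L genes, an exception chosen after seeing the data. Total signal divided by width, which is another scale, gave a member median of 8.85 against 9.09 for the other labelled peaks. Windows of 200 bp on each side of the apex gave 46.3% of members for CCGGAAG against 21.6% of the other labelled peaks, and 79.6% for GGGCGG against 76.1%. The same windows took the members with AGGTCA to 20.4% (others 16.5%) and with TATAAA to 9.26% (others 5.4%), and left GCATGCGC and ATGGCGGC at 9.26% (others 6.16% and 6.39%). The values in the sentence before this stayed within their intervals and are not among the 5 moves. Those came with a count by apex, another scale or a wider search, and their cause was not tested. For the ETS-type string, the wider search took members from 27.8% to 46.3% and the other labelled peaks from 15.1% to 21.6%. No paired analysis was possible because both replicates stand behind 1 deposited value for each peak, which also meant that neither could be left out. Depth, spread between replicates and the behaviour of peaks below the calling threshold cannot be assessed from 1 set of values.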

Other observations

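Apart from their promoter peak, 11 of 54 members (20.4%) had at least 1 further peak over the annotated gene, 16 peaks in all. The share lay at the background, since 1405 of 6411 other labelled genes (21.9%) had a peak without their label over the gene, with median gene lengths of 26709 bp for the members and 30373 bp for the others. In POLR1A, the largest subunit of RNA polymerase I, 2 intronic peaks at chr2:86263115-86264028 and chr2:86265426-86266267 had heights of 46 and 39, both above the 23 of the promoter peak and 69258 bp and 67359 bp from the nearest POLR1A start. In POLR2E, an exonic peak at chr19:1087494-1088500 had a height of 42, where the promoter peak had 35. MED16 had intronic peaks of 28 and 23, above the 20 of its labelled promoter peak, but 1809 bp and 2192 bp from another MED16 start. MED15 had an intronic peak of 23 beside a promoter of 16, 25411 bp from the nearest MED15 start. GTF2I and MED26 had 2 and 3 intronic peaks, of 26 and 29 and of 18, 21 and 25, all below their promoter peaks of 36 and 30. These intronic peaks lay 1065 bp to 6663 bp from the nearest start of the same gene. The rest were low peaks in TAF10 (17), GTF2A1 (17) and MED11 (22), the MED17 promoter peak within the long isoform of TAF1D (16), and the promoter peak of TMEM179B at the end of TAF6L (33).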
